A study of Mus musculus with 5 samples.

Results

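Keratins are the intermediate filament proteins of epithelial cells. The genes considered here are all those whose symbol is Krt followed by a number and at most 1 letter, without the keratin-associated proteins (Krtap) and Krtcap genes. They had 61 probe sets, among 45037 that were not controls, and came to 48 genes of 18193 with a probe set of a single symbol, and dim probe sets were kept. By the epithelia they are known from, 7 probe sets of 5 genes belonged to simple keratins, 26 of 17 genes to stratified keratins, 20 of 20 genes to hair and hair follicle keratins and 7 of 5 genes to other keratins, while Krt88 was in no class. There were 5 arrays, 3 of Lhx8 null and 2 of wild type ovaries of female mice, all 0.5 days after birth and of a mixed C57BL/6 and 129SvEv background. Each array held a pool of 50 ovaries from at least 25 animals, so an array is a pool and not an animal. The labels do not say how the null allele was made. Lhx8 is a homeobox gene whose product acts in oocytes.

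A keratin filament is built from a type I and a type II protein in equal amounts, so that epithelial cells express the genes in matched pairs. Single-layered (simple) epithelia use KRT8 and KRT18 with KRT7 and KRT19, the basal layer of stratified epithelia uses KRT5 and KRT14 with KRT15, the upper layers of skin use KRT1 and KRT10, and the hair shaft has keratins of its own. In the mouse ovary, simple keratins are known from the surface epithelium and from the tubules next to the ovary. In whole ovary RNA, fewer cells of a type and less RNA per cell cannot be told apart.

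Lhx8, the targeted gene, read 332.6, 159 and 347.4 in null ovaries, against 6450.1 and 5223.1 in wild type ovaries. Whether its probe set lies within the changed part of the gene was not tested. The germ cell gene Ddx4 had a mean signal of 486 ± 120 (SD, n = 3) in null and 3214 ± 234 (SD, n = 2) in wild type ovaries, and the granulosa cell gene Foxl2 1941 ± 318 and 5075 ± 867. The normalised arrays correlated at 0.960 to 0.974 within the null group, at 0.970 within the wild type group and at 0.905 to 0.931 between the groups, and null replicate 1 had the lowest values within its group. Y-linked genes, which female tissue lacks, read a median signal of 12.2 over their 12 probe sets and 112.8 at the most. This is a guide to the signal a probe set can give with no transcript of its own. The highest value was 1 reading, on wild type replicate 2, of an Sry probe set that may also bind other transcripts. That probe set read 23.3 on wild type replicate 3 and 15, 16.8 and 93.5 in null ovaries. The number of arrays limits the precision of every value below.

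Of the 61 keratin probe sets, 10 were higher and 6 were lower in Lhx8 null ovaries, and 45 did not pass (limma's two-sided test at 0.05, adjusted by Benjamini and Hochberg's method over all probe sets). Over all probe sets 10.7% were higher and 10.3% lower, against 16.4% and 9.84% of the keratin probe sets. These shares mix bright and dim probe sets, and 41 of the 61 were among the dimmest 40% of all probe sets. Among the dim ones 4.88% of keratin probe sets were higher and 7.32% lower, beside 2.53% and 2.75% of all. Among the 20 brighter ones 40% were higher and 15% lower, beside 16.1% and 15.3% of all. The median log2 fold change, null minus wild type, was -0.06 over the keratins and 0.00 over all probe sets. By class, simple keratins were mostly higher, a block of hair keratins and Krt79 were lower, and most stratified keratins did not pass. Without wild type replicate 3 the lower calls numbered 2, Krt79 and Krt34, and without null replicate 1 they numbered 6, of which 5 were the same as with all arrays, Krt20 being lost.

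**Figure D1:**
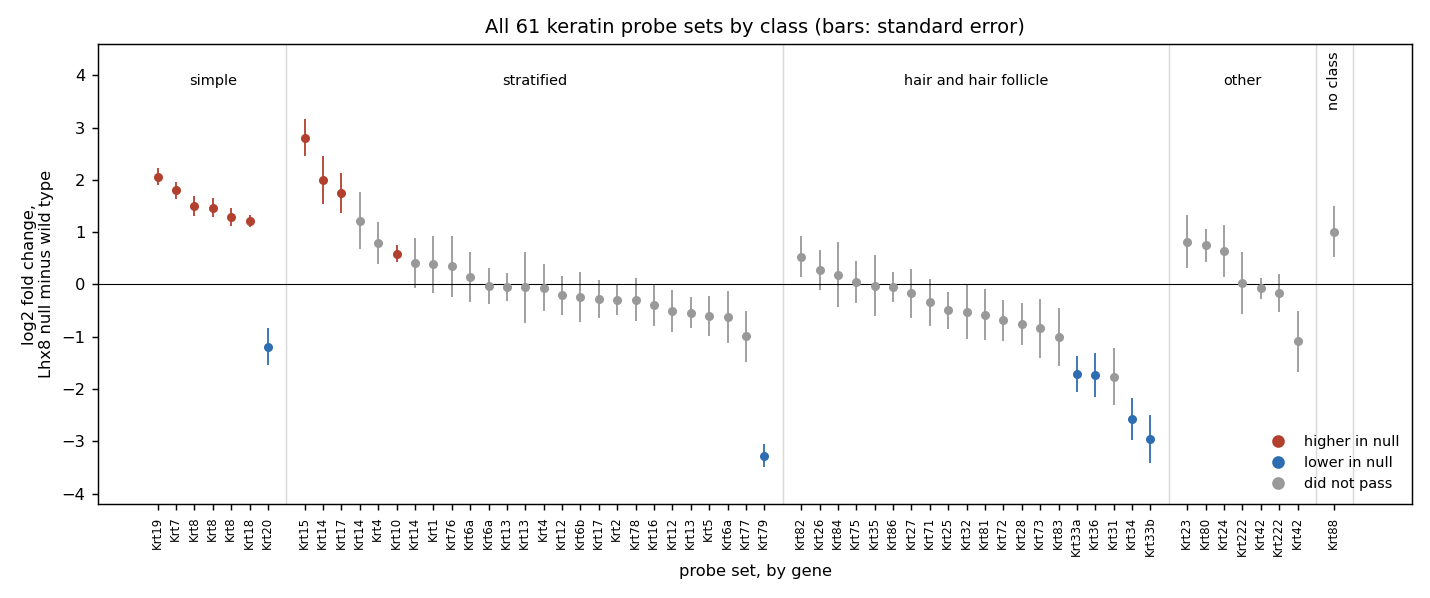
Log2 fold change, Lhx8 null minus wild type, of the 61 keratin probe sets, ordered by size within each class, with bars for the standard error (3 null and 2 wild type arrays). Red points were higher, blue points lower and grey points did not pass. All simple keratin points but Krt20 lie above 0, and the lowest points are Krt79 and the hair keratins Krt33b and Krt34.

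Simple keratins were 2.31 to 4.09 times as bright in null as in wild type ovaries at 6 of their 7 probe sets, and Krt20 was the exception. Krt19, a type I keratin with a very short tail, read 7474.1, 6917.7 and 6836.5 in null ovaries (replicates 1, 2 and 3, in this order throughout), against 2055.3 and 1406 in wild type ovaries (replicates 2 and 3). The lowest null array was 3.33 times the highest wild type array. Its log2 level rose by 2.06 (SE 0.17, adjusted p = 0.000165), and the mean signals were 7076 ± 347 (SD, n = 3) and 1731 ± 459 (SD, n = 2).

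Krt7, a type II keratin of ducts and glands, read 2096.9, 1584.4 and 1701.6 in null ovaries, against 554.2 and 457.5 in wild type ovaries. It rose by 1.80 (SE 0.16, adjusted p = 0.000255), and the groups lay well apart. Krt18, the type I keratin that forms the first filaments of the embryo together with KRT8, read 5667.5, 6538.5 and 5855.2 in null ovaries, against 2811.3 and 2399.9 in wild type ovaries. It rose by 1.22 (SE 0.12, adjusted p = 0.000342), the smallest rise among these 4 genes.

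Krt8, its type II partner, had 3 probe sets, and each gave the same picture. The first read 7024.8, 5072 and 4871 in null ovaries, against 2210.5 and 1817.2 in wild type ovaries. The log2 fold changes of the 3 probe sets were 1.51 (SE 0.19), 1.47 (SE 0.19) and 1.29 (SE 0.17), with adjusted p from 0.00111 to 0.00133. Null replicate 1 read the highest of the null arrays at each of them. The other 2 probe sets carry the suffix _x_at, which the array's maker gives to probe sets that may also bind other transcripts.

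Krt20, a type I keratin known from the gut lining and the urothelium, went the other way. It read 47, 67 and 62.6 in null ovaries, against 131.8 and 126.2 in wild type ovaries. The null signals were within the range read for Y-linked genes. The groups did not overlap, and the log2 fold change was -1.19 (SE 0.35, adjusted p = 0.0441). That call was close to the threshold: it was lost when any of the 5 arrays was left out, with the deposited scaling (-0.96, adjusted p = 0.0787), with a constant of 1 (-1.40, adjusted p = 0.0502) and with the replicate number as a block (-1.03, adjusted p = 0.0876). The other 6 simple keratin calls held under each setting that included the probe set.

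**Figure D2:**
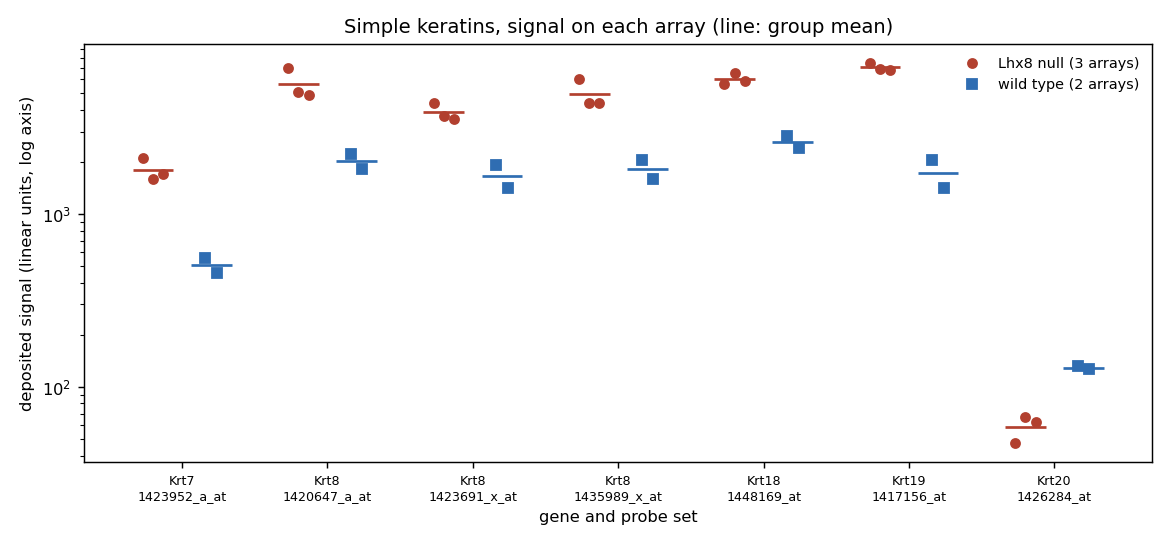
Deposited signal of the 7 simple keratin probe sets on each array, on a log axis, with circles for the 3 Lhx8 null arrays, squares for the 2 wild type arrays and lines for the group means. The null arrays lie above the wild type arrays for Krt7, Krt8, Krt18 and Krt19 and below them for Krt20.

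The windows at the start sites of Krt7 and Krt8 are shown because these type II genes rose together, and they differ in sequence. Each runs from 250 bases before the RefSeq start site to 50 bases after it, 5′ to 3′, in build GRCm38.p6 (Krt7 chr15:101412153-101412452, plus strand, and Krt8 chr15:102004293-102004592, minus strand). Capitals mark the TATA box letters TATAAA and the GC box letters GGGCGG, searched on both strands.
Krt7: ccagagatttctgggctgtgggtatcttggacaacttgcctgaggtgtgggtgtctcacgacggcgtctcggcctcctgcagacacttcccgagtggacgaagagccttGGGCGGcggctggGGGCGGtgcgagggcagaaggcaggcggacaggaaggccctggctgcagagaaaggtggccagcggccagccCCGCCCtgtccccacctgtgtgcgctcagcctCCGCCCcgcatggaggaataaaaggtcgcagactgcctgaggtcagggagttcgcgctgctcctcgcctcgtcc
Krt8: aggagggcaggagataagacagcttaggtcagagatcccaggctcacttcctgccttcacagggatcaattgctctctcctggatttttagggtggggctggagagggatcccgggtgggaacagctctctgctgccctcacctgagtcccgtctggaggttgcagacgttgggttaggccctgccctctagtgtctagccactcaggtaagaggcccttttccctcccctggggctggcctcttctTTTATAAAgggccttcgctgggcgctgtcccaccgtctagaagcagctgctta
Krt7 held the GC box letters at 4 places and not the letters TATAAA. Krt8 held overlapping TATA letters beside its annotated start and not the GC box letters. Only the exact letters were searched, so variants of either box were not counted. Aligned end to end, the windows had 174 identical bases of 300. The GC box letters were found in 35.7% of all 32851 RefSeq windows of this length and in 5.41% of the 37 keratin windows.

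Partner genes of the simple keratin pairs rose together, and a difference between their changes was not resolved with these arrays. The normalised log2 level of Krt8 minus that of Krt18 was 0.29, -0.34 and -0.25 in null ovaries and -0.36 and -0.41 in wild type ovaries, a difference of 0.29 between the groups (two-sided exact permutation test, p = 0.4, where 0.1 is the smallest p that 3 against 2 arrays can give). Null replicate 1 alone stood apart, and without it the difference was 0.09. For Krt7 minus Krt19 the difference was -0.26 (exact p = 0.3), with values of -1.82, -2.04 and -1.93 in null and -1.84 and -1.51 in wild type ovaries. A p that misses the threshold does not show equal change. For the basal pair, Krt5 minus Krt14 averaged -1.14 ± 0.23 (SD, n = 3) in null and 1.45 ± 0.27 (SD, n = 2) in wild type ovaries, a difference of -2.59 (exact permutation p = 0.1, the smallest possible). The size of that difference is uncertain: every Krt5 signal and both wild type Krt14 signals were within the range read for Y-linked genes, and the Krt14 values are from its _x_at probe set, while its other probe sets had smaller log2 fold changes of 1.22 and 0.42. For Krt1 minus Krt10 the difference was -0.21 (exact p = 0.8), with -2.45 and -4.48 in wild type ovaries lying far apart, and it stood at 0.03 with the deposited scaling or median centring. Every Krt1 signal was within the Y-linked range too. These 4 tests form a family, and none can pass 0.05 in this design.

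Among stratified keratins, 4 probe sets of 26 were higher and 1 was lower (15.4% and 3.85%, beside 10.7% and 10.3% of all probe sets). Krt15, a type I keratin of basal cells and hair follicle stem cells, read 157.7, 124.6 and 163.2 in null ovaries, against 4.7 and 6.1 in wild type ovaries. The wild type signals were within the range read for Y-linked genes, and the level rose by 2.81 on the log2(signal + 16) scale (SE 0.36, adjusted p = 0.00125). Krt15 is the gene directly next to Krt19 on chromosome 11.

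Krt14 and Krt17 are type I keratins of basal cells and of hair follicles and stressed skin. At its first probe set, which has the suffix _x_at, Krt14 read 259.5, 106.7 and 135.4 in null ovaries, against 11.2 and 35.6 in wild type ovaries (log2 fold change 1.99, SE 0.46, adjusted p = 0.0171). Its other probe sets had 1.22 and 0.42 and did not pass, and that suffix leaves it uncertain how much of the signal belongs to a paralog. Krt17 read 99.4, 146.2 and 96.1 in null ovaries, against 17.9 and 14.7 in wild type ovaries (1.75, SE 0.38, adjusted p = 0.0142). Its second probe set, at most 16.6 on any array, had -0.28. Both wild type signals of Krt14 (first probe set) and of Krt17 (first probe set) were within the range read for Y-linked genes. Krt14 in null replicate 2 and Krt17 in null replicates 1 and 3 were within it too. Without wild type replicate 2 neither passed (Krt14 adjusted p = 0.128, Krt17 adjusted p = 0.0737), and Krt17 also missed the threshold when null replicate 2 (adjusted p = 0.0531) or wild type replicate 3 (adjusted p = 0.099) was left out.

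Krt10, the type I keratin of the upper epidermis, was measurable in both groups. It read 784.3, 991.2 and 859 in null ovaries, against 547.9 and 610.5 in wild type ovaries, and rose by 0.59 (SE 0.16, adjusted p = 0.0332). This call did not hold with arrays centred on their medians (0.34, adjusted p = 0.243), without a trend in the variance (adjusted p = 0.114), or without wild type replicate 2, wild type replicate 3, null replicate 2 or null replicate 3 (adjusted p = 0.0848 to 0.19). Its epidermal partner Krt1 read 73.3, 47.3 and 59.1 in null ovaries, against 75.9 and 10.4 in wild type ovaries, and the groups overlapped. Krt5, the basal type II keratin, read 91.2, 45.9 and 58.7 in null ovaries, against 67.9 and 106.1 in wild type ovaries, and did not pass (-0.60, SE 0.38).

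The other genes of the epidermis gave few calls. Of 19 epidermis markers measured, 1 was higher and none lower, where 14.0% of all genes were higher and 13.5% lower (1 probe set per gene), and their median log2 fold change was -0.24. Their summed signal was 3088 to 3661 on null arrays and 2958 to 3015 on wild type arrays, with Lgals7 and Sbsn the brightest members. Many others, such as Flg, Ivl, Cdsn, Krtdap and Sfn, stayed within the range read for Y-linked genes on every array. Of all probe sets among the dimmest 40%, only 2.53% were higher and 2.75% lower. Few calls among such dim genes do not show that they were unchanged. The marker that rose was Dmkn, a secreted protein gene, by 1.59 (SE 0.19, adjusted p = 0.00089). Lor, which encodes the main protein of the cornified envelope, had -0.89 (adjusted p = 0.0952), with 81.1, 108.2 and 106.1 in null and 199.9 and 138.6 in wild type ovaries.

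Krt79 had the lowest log2 fold change of the keratins on the log2(signal + 16) scale. It encodes a type II keratin known in mouse skin from the upper hair follicle and the sebaceous duct. It read 145.3, 96.4 and 142.1 in null ovaries, against 1179.3 and 1438.9 in wild type ovaries. The lowest wild type array was 8.12 times the highest null array, and the mean signal in wild type was 10.2 times that in null ovaries. Its log2 level fell by 3.27 (SE 0.22, adjusted p = 9.73e-05), and the call held under every setting run. Its place in the order did not: with a constant of 1 the log2 fold change was -3.43 for Krt79, against -3.996 for Krt33b, -3.58 for Krt33a and -3.53 for Krt34, and without wild type replicate 2 it was -3.36 for Krt79 and -3.38 for Krt33b. By mean signals, wild type was 12.6 times null for Krt33a and 12.5 times for Krt33b. Every Krt33a signal and the null signals of Krt33b and Krt34 were within the range read for Y-linked genes. The size of their folds, and so their place beside Krt79, is uncertain. The neighbours of Krt79 on chromosome 15 gave no call: Krt4 had log2 fold changes of -0.06 and 0.79 and Krt78 had -0.29.

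Of 7 neighbouring type I hair keratin genes, 4 were lower in null ovaries, beside 13.5% of all genes (1 probe set per gene). These 7 were grouped after their values were seen, so the count is not a test of the group. RefSeq lists Krt33a, Krt33b, Krt34, Krt31, Krt32, Krt35 and Krt36 next to each other on chromosome 11, with no other gene between them. Their proteins are building blocks of the hair shaft, and no role in the ovary is given in the sources used here. Krt33b read 4.7, 28.2 and 18.7 in null ovaries, against 142.3 and 287.9 in wild type ovaries, and fell by 2.95 (SE 0.47, adjusted p = 0.00336). Krt34 read 7.2, 18.4 and 22.2 in null ovaries, against 122.7 and 174.9 in wild type ovaries, and fell by 2.58 (SE 0.40, adjusted p = 0.00308). For both genes the null signals were within the range read for Y-linked genes, and no array overlapped with the other group.

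Krt36 was lower too, with 42, 109.2 and 95.7 in null ovaries, against 229.9 and 296.7 in wild type ovaries (-1.73, SE 0.42, adjusted p = 0.0215). Its null signals were within the range read for Y-linked genes. Krt33a was dim in both groups, with 1.7, 4.4 and 3.9 in null and 30.1 and 54.1 in wild type ovaries (-1.71, SE 0.34, adjusted p = 0.00972). All of its signals, in both groups, were within the range read for Y-linked genes. Krt31 read 75.5, 6.8 and 34.8 in null ovaries, against 115.7 and 126.7 in wild type ovaries. It lay below wild type on each null array but missed the threshold (-1.77, SE 0.55, adjusted p = 0.0536). Krt32 read 30.2, 104.6 and 93.6 in null ovaries, against 70.5 and 111.6 in wild type ovaries. Krt32 and Krt35, which lie between Krt31 and Krt36, overlapped between the groups (-0.53 and -0.03), so the run was not lower throughout.

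Without wild type replicate 3, Krt33a (adjusted p = 0.0614), Krt33b (adjusted p = 0.0506) and Krt36 (adjusted p = 0.181) did not pass, and Krt36 was also lost without wild type replicate 2 (adjusted p = 0.106). These hair keratins are close copies of each other. Their probe sets carry no _x_at or _s_at suffix, but the probe sequences were not used here, so signal shared between Krt31, Krt33a, Krt33b and Krt34 was not tested.

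**Figure D3:**
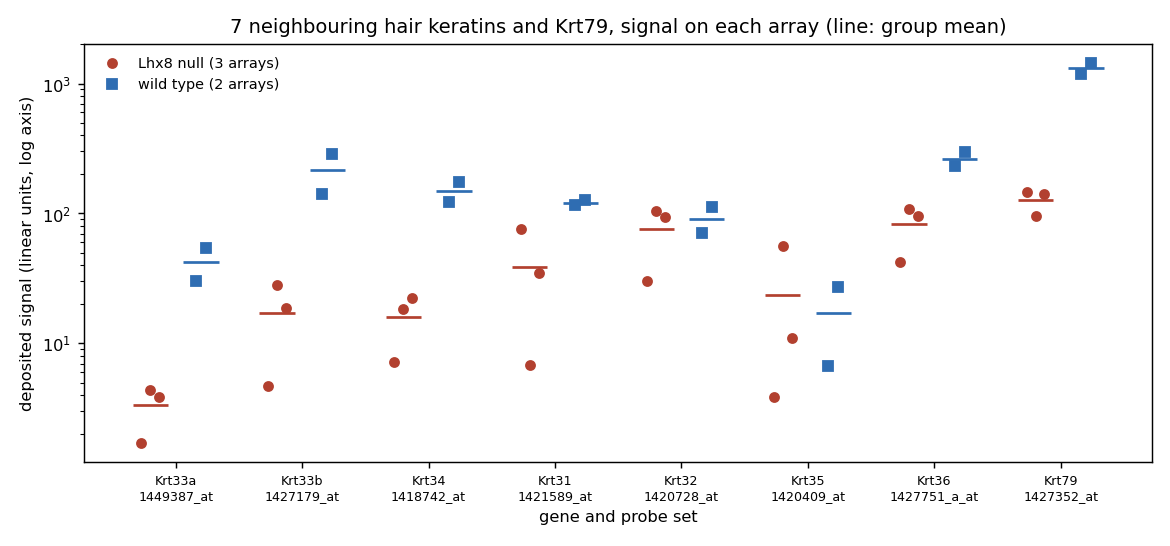
Deposited signal of the 7 neighbouring hair keratins of chromosome 11, in gene order, and of Krt79, on a log axis, with circles for the 3 Lhx8 null arrays, squares for the 2 wild type arrays and lines for the group means. The wild type arrays lie above the null arrays for Krt33a, Krt33b, Krt34, Krt31, Krt36 and Krt79, while Krt32 and Krt35 overlap.

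The windows of Krt33b, Krt34 and Krt79 are shown because these genes had the lowest fold changes of the family on the log2(signal + 16) scale. They are RefSeq windows of the same length and build (Krt33b chr11:100029819-100030118, minus strand, Krt34 chr11:100041505-100041804, minus strand, and Krt79 chr15:101940275-101940574, minus strand), 5′ to 3′, with the same letters in capitals.
Krt33b: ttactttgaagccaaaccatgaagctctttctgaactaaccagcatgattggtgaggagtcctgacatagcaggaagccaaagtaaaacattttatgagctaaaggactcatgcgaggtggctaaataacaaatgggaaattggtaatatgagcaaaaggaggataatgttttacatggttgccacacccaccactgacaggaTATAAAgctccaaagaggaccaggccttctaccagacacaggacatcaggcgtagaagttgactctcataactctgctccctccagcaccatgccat
Krt34: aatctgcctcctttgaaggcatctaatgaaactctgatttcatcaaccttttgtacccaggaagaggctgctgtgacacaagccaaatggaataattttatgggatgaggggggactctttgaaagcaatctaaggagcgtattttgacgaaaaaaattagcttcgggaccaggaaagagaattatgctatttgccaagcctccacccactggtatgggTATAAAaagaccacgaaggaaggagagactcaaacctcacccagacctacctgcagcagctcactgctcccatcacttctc
Krt79: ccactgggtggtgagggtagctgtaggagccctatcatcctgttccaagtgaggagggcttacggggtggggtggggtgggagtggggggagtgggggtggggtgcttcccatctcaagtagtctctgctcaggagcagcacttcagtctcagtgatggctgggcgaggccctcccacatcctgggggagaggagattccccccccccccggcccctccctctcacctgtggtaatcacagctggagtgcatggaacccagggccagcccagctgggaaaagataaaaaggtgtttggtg
The hair keratin windows each held the exact letters TATAAA at 1 place, 47 bases before the start in Krt33b and 31 bases before it in Krt34. The Krt79 window did not hold these exact letters. Krt33b and Krt34 had 195 identical bases of 300, against 161 for either of them and Krt79. The TATA box letters were in 51.4% of the 37 keratin windows and in 13.6% of all windows. The letters TAATTA, a core that many homeodomain proteins bind, were in 5.29% of all windows, in 13.5% of keratin windows, and in 0 of the 10 windows of keratins that were higher or lower. Those windows cover 5 of the 8 higher and 5 of the 6 lower genes, and Krt15, Krt17, Krt19 and Krt33a were not searched. This says only that these letters are not in these windows.

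Hair and hair follicle keratins as a class had 4 of 20 probe sets lower and 0 higher (beside 10.3% lower and 10.7% higher of all probe sets), with a median log2 fold change of -0.55. Normalised null arrays lay entirely below wild type arrays for 8 of them and above for 0, where 25.0% of all probe sets lay below and 24.5% above. The members outside the run were dim. Krt81, a type II hair keratin and alone among those that did not pass in having a signal above 150, read 78.6, 290.7 and 160.4 in null ovaries, against 213.1 and 210.6 in wild type ovaries, and the groups overlapped (-0.58, SE 0.49).

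**Figure D4:**
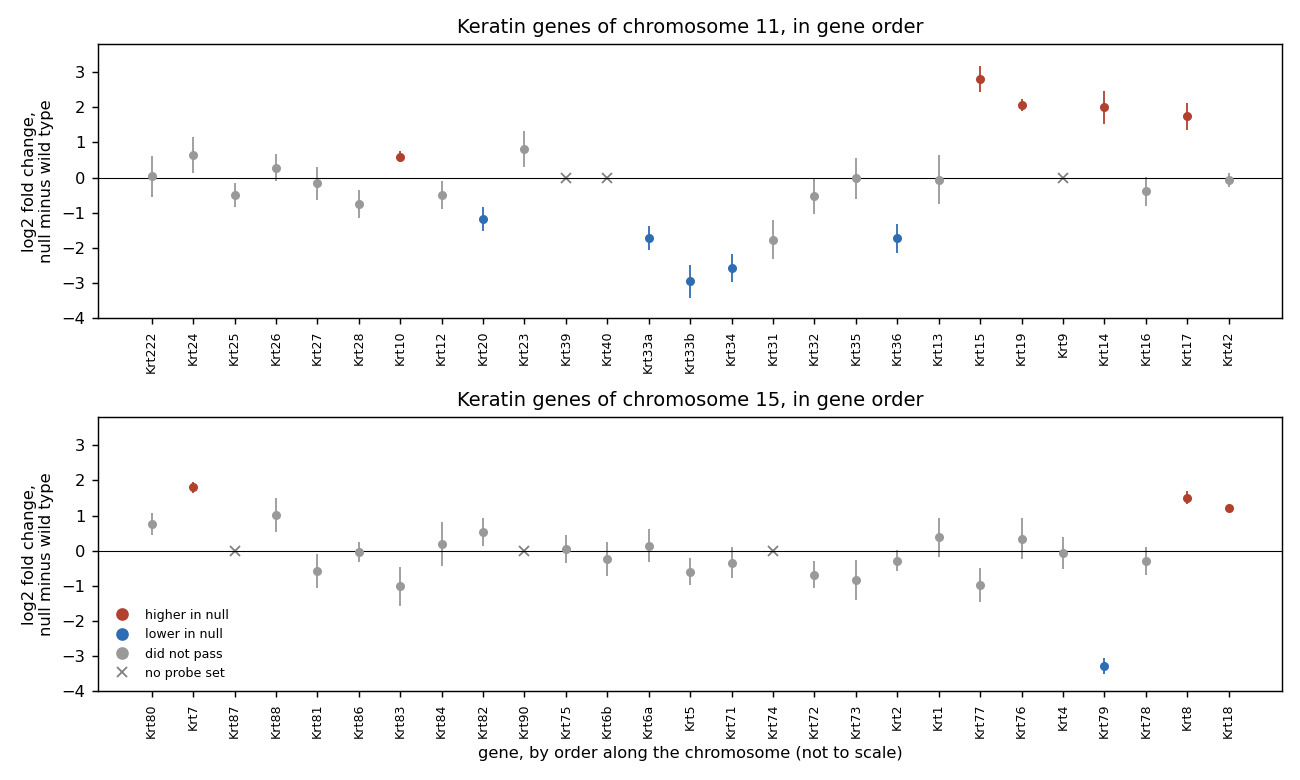
Log2 fold change, Lhx8 null minus wild type, of 1 probe set for each keratin gene in the order of the genes along chromosomes 11 (type I genes) and 15 (type II genes and Krt18), with bars for the standard error and crosses for genes with no probe set. Lower genes lie next to each other from Krt33a to Krt34, and the higher genes Krt15 and Krt19 are neighbours, as are the higher genes Krt8 and Krt18 among keratins.

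The type I genes lie on chromosome 11 and the type II genes on chromosome 15, with Krt18 as the type I gene beside Krt8. RefSeq lists 27 keratin genes on each, and 24 on each had a probe set. By type, 6 of 33 type I probe sets were higher and 5 lower, and 4 of 27 type II probe sets were higher and 1 lower, beside 10.7% higher and 10.3% lower of all probe sets. Higher and lower genes stood close to each other on both chromosomes: Krt13, which overlapped between the groups at its brightest probe set (-0.06), is all that separates the lower Krt36 from the higher Krt15, and Krt78 all that separates the lower Krt79 from the higher Krt8.

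The 45 probe sets that did not pass belonged to 36 genes, some of them with another probe set that did. Of these probe sets, 41 stayed below a signal of 150 on every array. Their log2 fold changes ran from -1.77 to 1.22, with a median SE of 0.45. The _x_at probe set of Krt42 overlapped between the groups, with 704.9, 472.2 and 651.6 in null and 675.5 and 593.2 in wild type ovaries (-0.08, SE 0.19). Krt80, a type II keratin, read 124.8, 136 and 151.3 in null ovaries, against 60.5 and 61.1 in wild type ovaries. No array of Krt80 overlapped with the other group, but it did not pass (0.75, SE 0.32, adjusted p = 0.14). Krt12, the cornea keratin, read 110.5, 116.9 and 47.6 in null ovaries, against 105.8 and 108.6 in wild type ovaries (-0.51, SE 0.40). Krt24 read 103.9, 143.6 and 78.2 in null ovaries, against 23 and 95.7 in wild type ovaries, and overlapped (0.64, SE 0.50).

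Genes that anchor keratin filaments gave calls both ways. Of 12 desmosome genes measured, 4 were higher and 1 lower (median 0.19, beside 14.0% and 13.5% of all genes). Dsp, which ties keratins to the desmosome, read 1084.5, 1858.2 and 1961.6 in null ovaries, against 472.8 and 673.1 in wild type ovaries, and rose by 1.47 (SE 0.27, adjusted p = 0.00683). The desmosomal cadherin gene Dsc3 rose by 2.16 (SE 0.36) and the plakophilin gene Pkp3 by 1.96 (SE 0.43). Both wild type signals of each were within the range read for Y-linked genes. Pkp2, another plakophilin gene, fell by 1.78 (SE 0.12, adjusted p = 8.96e-05), with 750.1, 796.5 and 743 in null and 2723.9 and 2742.5 in wild type ovaries.

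Of 9 hemidesmosome and plakin genes, 5 were higher and 1 lower (median 0.98, beside 14.0% and 13.5% of all genes). Plec, Ppl and Dst, large linker proteins of the plakin family, rose by 1.13 (SE 0.17), 1.10 (SE 0.19) and 0.98 (SE 0.15). Itga6, an integrin subunit of hemidesmosomes that germ cells also carry, fell by 1.42 (SE 0.11, adjusted p = 0.000162), with a mean signal of 3233 ± 351 (SD, n = 3) in null and 8311 ± 292 (SD, n = 2) in wild type ovaries.

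Of 16 other intermediate filament genes, 6 were higher and 3 lower (median 0.25, beside 14.0% and 13.5% of all genes). The neurofilament genes Nefm and Nefl rose by 2.57 (SE 0.18) and 2.34 (SE 0.28), and Des, the muscle desmin gene, by 2.49 (SE 0.20). Bfsp1, known from the lens, fell by 5.01 (SE 0.38, adjusted p = 0.00014), with 38.6, 68.7 and 48.7 in null and 1363 and 3174 in wild type ovaries. Of 16 epithelial regulator genes 6 were higher and 3 lower (median 0.30, beside the same shares). Klf5 and Ehf, transcription factors of epithelia, rose by 2.72 (SE 0.17) and 3.20 (SE 0.28). Zeb1, Snai1 and Snai2, which encode repressors of epithelial genes, are also among the 6 and rose by 0.59, 1.04 and 0.46. Trp63, which drives Krt5 and Krt14 in basal keratinocytes and guards oocytes, fell by 5.11 (SE 0.50, adjusted p = 0.000404), and the splicing factor gene Esrp1 fell by 2.15 (SE 0.14). Both wild type signals of Ehf and Snai1 were within the range read for Y-linked genes, as were all null signals of Trp63 and Bfsp1.

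Markers of several cell types changed too, some lists mostly higher and others mostly lower, and their part in the keratin values was not tested. General epithelium markers were higher in 9 of 11 cases and lower in 0 (median 1.19, beside 14.0% higher and 13.5% lower of all genes, as for the next lists), with a summed signal of 12230 to 14522 on null and 5019 to 5860 on wild type arrays. Oviduct and mesonephric epithelium markers were higher in 6 of 7 cases (median 3.16, summed signal 12068 to 14382 on null and 2899 to 3809 on wild type arrays), and ovarian surface mesothelium markers in 6 of 6 (median 1.84, summed signal 13955 to 15336 on null and 3791 to 4527 on wild type arrays). Pregranulosa markers were lower in 6 of 8 cases and higher in 1 (median -1.17, summed signal 13782 to 15951 on null and 22711 to 25206 on wild type arrays). Germ cell markers were lower in 6 of 6 (median -2.70, summed signal 6188 to 10339 on null and 43030 to 45509 on wild type arrays). No marker in these lists was at a signal of 0, but this does not show that each was expressed. Some were within the range read for Y-linked genes in 1 group, among them Cldn3, St14 and Wnt7a in wild type and Gdf9 in null ovaries. Lhx1 was within it on every array. The size of such changes is uncertain.

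**Figure D5:**
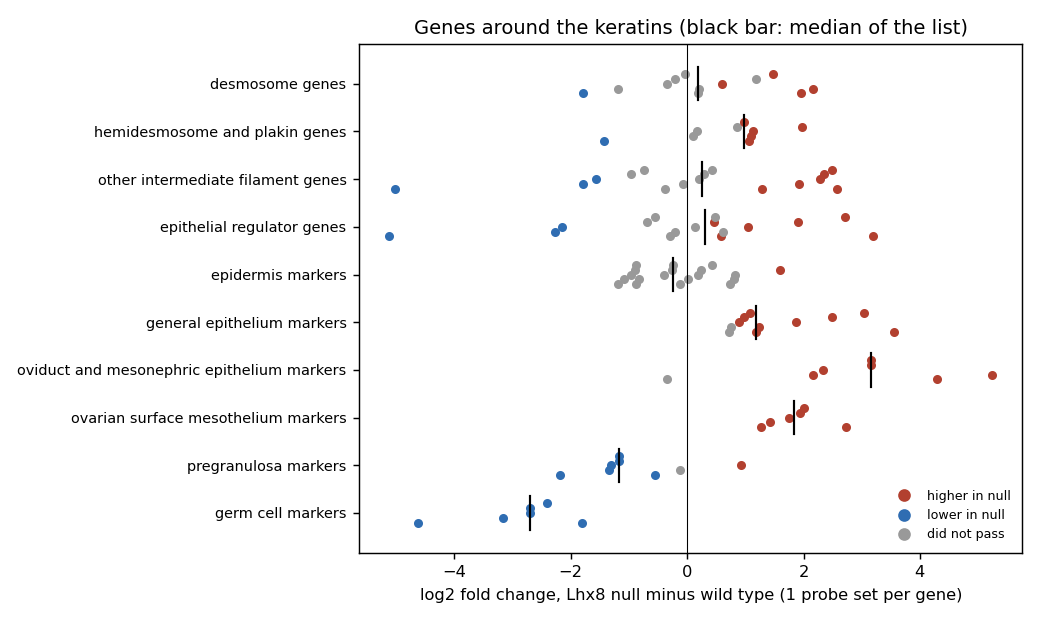
Log2 fold change, Lhx8 null minus wild type, of genes in 10 lists, with 1 point for each gene (its brightest probe set), red where higher, blue where lower and grey where it did not pass, and a black bar for the median of the list. The oviduct and mesonephric, mesothelium and general epithelium medians lie at 3.16, 1.84 and 1.19, and the pregranulosa and germ cell medians at -1.17 and -2.70.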

How the data were processed

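The table holds the intensities the authors deposited, linear signals of biotin-labelled target (per the labels' protocols) with 1 row per probe set. Each array's deposited signals have a 2% trimmed mean of 500, which shows an earlier scaling. The submitters' processing notes name GCOS for the wild type samples only. The labels name no array batches, and a first wild type replicate was not analysed. Groups and replicate numbers come from the titles. Replicates were pools. The limma p-values set each group difference against the spread between pools, with each variance drawn towards a trend over all probe sets.

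Signals were put on the scale log2(signal + 16), on which array medians ran from 6.80 to 7.18, and quantile normalised. Of 45101 probe sets, 64 controls were left out. All other 45037 were tested with limma 3.58.1 in R 4.3.3 (lmFit, then eBayes with a variance trend, two-sided), with Benjamini-Hochberg adjustment over all of them, a threshold of 0.05 and no brightness filter. Fold changes of dim genes are understated on this scale. Means and SDs are of deposited signals, and overlap between groups was judged on normalised levels. Gene names are those of the platform annotation. All 61 keratin probe sets matched a gene ID in a RefSeq table of GRCm38.p6, and 0 symbols differed. Each gene of the other lists, and of a filament pair, was taken at its probe set with the highest mean over all arrays. Only the fit, not the scale or the normalisation, was run on arrays simulated from normalised levels. Fewer probe sets were changed in them than were called here.

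The members and lists were chosen with earlier results of these data known. Named with values are the simple keratins, keratins past the threshold, the 6 with the highest mean among the rest, Lhx8, and up to 4 genes of each list with the smallest p. Krt1, Krt4, Krt5, Krt13, Krt31, Krt35, Krt78, Lor, Zeb1, Snai1 and Snai2, and further probe sets of named genes, were added after their values were seen, as partners, neighbours, comparators or repressors. Alternatives covered scaling, the constant (1 or 64), brightness filters, 1 probe set per gene, probe sets that may cross-hybridise, the variance model, a threshold of 0.01, the replicate number as a block and each array left out. Sequences are from RefSeq, and windows were aligned with Biopython 1.88. Plots were made with Python 3.11.15 and matplotlib 3.10.9.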

Additional observations from a re-analysis of the deposited data

How the results depend on the processing

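The 6 higher simple keratin calls were 6 in the settings that kept all probe sets, and 4 of 4 tested with 1 probe set per gene or without _x_at and _s_at probe sets. The count of all probe sets called, 9458, was 5220 with 1 probe set per gene and the dimmest 40% of genes left out, 6057 with no variance trend and 4750 at a threshold of 0.01, and ran from 3935 to 10027 with an array left out. The higher keratin count of 10 was 5 with 1 probe set per gene, where only 8 keratins were tested. The lower count of 6 was 3 with the dimmest 40% of probe sets left out, 1 with 1 probe set per gene, and 2 to 6 with an array left out. Filters on the mean remove genes that fell to background. With arrays centred on their medians, 3396 probe sets were higher and 6302 lower, against 4816 and 4642, and the median log2 fold change moved to -0.13; with the deposited scaling it was 0.11. Krt1 minus Krt10 turned to 0.027 with either of these scalings and to 0.090 with a constant of 1, and ran from -1.22 to 0.81 with an array left out. With an array left out, Krt24 ran from -0.11 (without wild type replicate 2) to 1.40 and Krt42 from -0.18 to 0.091 (without null replicate 2), and neither passed. With the replicate number as a block, 9830 probe sets were called, 10 keratin probe sets were higher and 6 lower, 5 of these 6 being lower without the block too. The deviations of same-numbered arrays from their group means correlated at 0.0083 and 0.0078 for the numbers shared. With 2 wild type arrays these deviations are mirror images of each other, so the correlations can say little about pairing. The main fit did not pair the pools by number. The cause of the other changes was not tested. Signals near those of Y-linked genes limit what the dim keratins can show.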
